A study of Mus musculus with 18 samples.

Results

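The Hedgehog signaling genes of the embryonic mouse lung described here are *Shh*, *Ptch1*, *Hhip*, *Smo*, *Gli1*, *Gli2* and *Gli3*. They were taken by name from the tables of 3 RNA-Seq experiments on whole lungs, so that the set holds 7 of the 23420 genes in each table, and all 7 passed the filter on low values in every experiment. The *Vangl1/2* experiment compared lungs of genotype Vangl1-/-; Vangl2-/- with lungs of genotype Vangl1-/- at E12.5 (embryonic day, counted as days post coitus). Both groups therefore lacked functional *Vangl1* and differed in *Vangl2*, which encodes a core component of planar cell polarity. The *Vangl2* null allele was made with the ubiquitous *Sox2-Cre*, so every lung cell carried it. In the *Dermo1Cre* experiment, Wnt5af/f; Dermo1Cre lungs were compared with Wnt5af/+; Dermo1Cre lungs at E12.5. In the *Sox9Cre* experiment, Wnt5af/f; Sox9Cre lungs were compared with Wnt5af/+; Sox9Cre lungs at E13.5. *Dermo1-Cre* acts in the lung mesenchyme and *Sox9-Cre* in the distal epithelium. The controls of both *Wnt5a* experiments carried the Cre and 1 floxed allele of *Wnt5a*, a secreted Wnt ligand. Each group had 3 libraries, and the number of embryos in a library was not given in the sources used here, so that p-values measure only the spread between libraries.

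In the developing lung, Sonic hedgehog is secreted by the epithelium and received by the mesenchyme around it. Its receptor Ptch1 holds the membrane protein Smo inactive until the ligand binds. Released Smo then changes the balance of the Gli transcription factors, in which Gli1 acts as an activator, Gli2 mainly as an activator and Gli3 mainly as a repressor. *Ptch1*, *Hhip* and *Gli1* are themselves targets of the pathway, and their RNA is a common readout of its activity, while Hhip, a membrane protein that binds the ligand, limits it from outside the cell. The pathway is known for its part in mesenchymal growth, smooth muscle formation and branching of the lung.

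*Ptch1* (GRCm38 chr13:63508328-63573598), *Gli3* (chr13:15463235-15730026) and *Hhip* (chr8:79965851-80058006) had the 3 longest transcripts of the set, at 10.38, 8.17 and 9.07 kb for the longest transcript that GENCODE annotates. *Gli2* (chr1:118834132-119053619) followed at 6.64 kb. *Gli1* (chr10:127329882-127341974) had 4.06 kb, *Smo* (chr6:29735503-29761365) 3.78 kb and *Shh* (chr5:28456815-28467256) 2.85 kb. The values are counts over a whole gene and do not separate exons or isoforms. In the annotation, 807 exonic bases of *Shh* are shared with the antisense RNAs *9530036O11Rik* and *Gm26894*, and 327 of *Gli1* with *Arhgap9* and *Gm47200* on the other strand. Shared bases also number 188 in *Gli3* and 175 in *Hhip*. Whether the reads were counted by strand was not given in the sources used here, so reads of these genes and of their neighbours could not be told apart there.

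*Ptch1*, *Hhip* and *Gli3* are the members whose values moved together across libraries, as described below, and their RefSeq promoters are shown for that reason. Each stretch runs from 250 bases before a start site to 50 bases after it, 5′ to 3′ on the strand of the gene, in build GRCm38.p6, and the capitals mark the GC box GGGCGG or its reverse complement, which the factor Sp1 is known to bind. The *Ptch1* start site lies inside the span of the gene given above. The stretches are chr13:63565686-63565985 on the minus strand for *Ptch1*, chr8:80057959-80058258 on the minus strand for *Hhip* and chr13:15463473-15463772 on the plus strand for *Gli3*.
Ptch1: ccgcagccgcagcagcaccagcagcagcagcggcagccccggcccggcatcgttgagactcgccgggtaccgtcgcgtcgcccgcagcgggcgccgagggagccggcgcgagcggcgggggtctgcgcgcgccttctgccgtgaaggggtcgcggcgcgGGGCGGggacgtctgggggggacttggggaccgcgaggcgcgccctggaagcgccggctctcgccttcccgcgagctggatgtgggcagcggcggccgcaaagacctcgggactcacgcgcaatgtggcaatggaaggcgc
Hhip: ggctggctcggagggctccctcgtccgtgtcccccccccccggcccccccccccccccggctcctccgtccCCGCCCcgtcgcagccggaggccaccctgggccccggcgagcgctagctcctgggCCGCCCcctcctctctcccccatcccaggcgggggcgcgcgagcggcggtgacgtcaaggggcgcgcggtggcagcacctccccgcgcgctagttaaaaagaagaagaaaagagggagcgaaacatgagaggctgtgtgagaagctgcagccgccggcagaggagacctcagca
Gli3: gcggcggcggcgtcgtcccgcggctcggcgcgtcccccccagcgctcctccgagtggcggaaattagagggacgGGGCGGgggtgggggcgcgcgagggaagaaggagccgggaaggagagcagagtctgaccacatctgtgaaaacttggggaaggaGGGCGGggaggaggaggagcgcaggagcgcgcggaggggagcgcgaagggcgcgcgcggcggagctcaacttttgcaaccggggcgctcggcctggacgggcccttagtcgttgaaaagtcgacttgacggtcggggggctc
*Ptch1* held 1 GC box, and *Hhip* and *Gli3* held 2 each. Promoter sequence was at hand for 5 of the 7 members, and 4 of these 5 held at least 1 GC box, against 35.7% of 32851 mouse promoters of the same length. Among 34 promoters of other Hedgehog pathway genes, 24 held a GC box (70.6%). Whether GC boxes bear on the shared movement of these genes was not tested. The GC content was 76.3% for *Ptch1*, 73.7% for *Hhip*, 71.0% for *Gli3*, 67.7% for *Smo* and 67.3% for *Gli2*, with a median of 52.7% over all promoters. Over the 34 promoters of other pathway genes the median was 61.3%. The Gli core motif GACCACCCA, searched on both strands with no overlap between the 2 motifs, was in none of the 5, and 0.253% of all promoters held it. With up to 1 mismatch it was again in none of the 5, against 6.74% of all promoters.

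The 18 libraries had between 15945393 and 19814346 reads on genes, and the deposited values, called normalized counts here, are counts per gene after division by the authors' size factors (0.952 to 1.07). *Vangl2* had 277, 406 and 334 normalized counts in the *Vangl1/2* controls and 86.5, 79.8 and 89.6 in the mutants (log2 fold change −1.96, limma, Benjamini-Hochberg adjusted p = 0.0318). *Wnt5a* had 472, 430 and 490 in the *Dermo1Cre* controls against 317, 436 and 230 in the mutants, and 473, 453 and 426 against 442, 362 and 448 in *Sox9Cre* lungs, so that the groups overlapped in both. Markers of the lung epithelium summed to between 20730 and 27113 normalized counts in every library and those of the mesenchyme to between 46273 and 101098, in keeping with the labelled tissue. The sum of 7 cardiomyocyte markers ranged from 443 to 19269. The libraries also differed in how far their values leaned towards genes with long transcripts. Over the *Vangl1/2* libraries, the Spearman correlation across genes between transcript length and a library's deviation from the mean of its controls was −0.46 and −0.45 in control replicates 1 and 3 and 0.57 in control replicate 2, with 0.62, 0.58 and 0.64 in the mutants. These correlations are across 14164 genes, which are not independent replicates.

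Per length, *Smo* was the member with the highest level in every group. In the *Sox9Cre* controls it had 1119 ± 7.93 normalized counts per kb of transcript (SD, n = 3). *Gli1* followed at 392.5 ± 11.8, *Shh* at 322 ± 15.3, *Gli3* at 285 ± 9.29, *Ptch1* at 250 ± 14.2, *Hhip* at 203 ± 8.51 and *Gli2* at 175 ± 3.66 per kb. No neighbours in this order overlapped in these 3 libraries. The order was the same in the *Dermo1Cre* controls, from 1130 ± 66.5 per kb for *Smo* to 173 ± 3.07 for *Gli2*, where only *Gli3* and *Ptch1* overlapped. In the *Vangl1/2* controls the ranges of *Shh*, *Gli3*, *Ptch1*, *Gli2* and *Hhip* overlapped from each gene to the next, and *Hhip* was lowest at 123 ± 57.6 per kb.

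**Figure D1:**
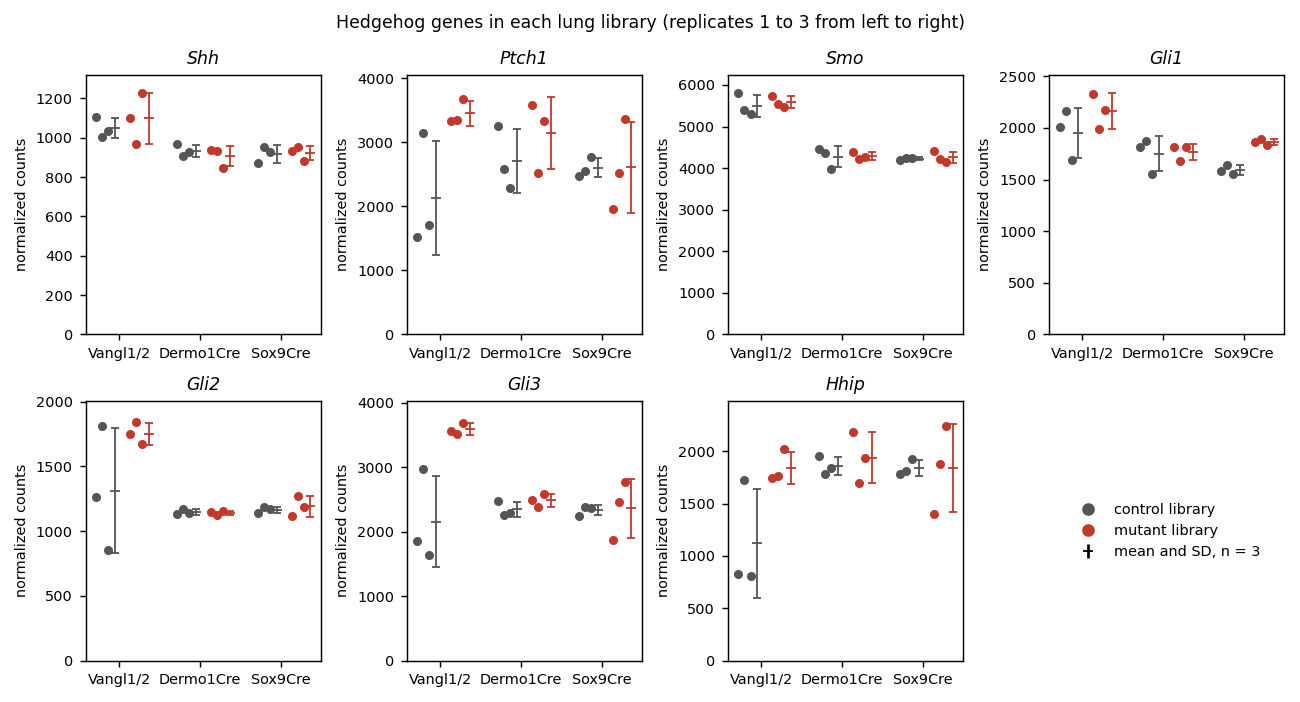
Normalized counts (y axes from 0) of the 7 genes in each of the 18 libraries. Points are libraries, grey for controls and red for mutants, and the bars beside them give the mean and SD (n = 3). In the *Vangl1/2* experiment, control replicate 2 lies apart from the other controls in *Ptch1*, *Hhip*, *Gli2* and *Gli3*, and in *Sox9Cre* lungs the mutants lie above the controls in *Gli1*.

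To test whether the loss of *Vangl2* on a *Vangl1* mutant background went along with a difference in Hedgehog genes, the *Vangl1/2* libraries were compared. *Ptch1*, *Hhip* and *Gli3* had higher values in all 3 mutant libraries than in all 3 controls, at 1.71, 1.75 and 1.72-fold, and none of the 3 passed the adjusted threshold of 0.05. Of the 7 members, 0 passed in limma, edgeR or DESeq2, against 0.00699% of the 14303 genes tested in limma. The smallest adjusted p-values of the members in DESeq2 were 0.0790 for *Gli3*, 0.0834 for *Ptch1* and 0.0872 for *Hhip*, where 0.0769% of all genes passed. At an unadjusted p-value under 0.05 the count was 3 of 7 in limma, all higher in the mutants, against 20.5% of all genes. Groups that were apart with higher values in the mutants were also seen for 3 of 7 members, against 13.6% of all genes, and groups apart with lower values for 0 of 7, against 8.68%. The median log2 fold change was 0.49 over the members and −0.01 over all genes tested.

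The ligand and *Smo* had log2 fold changes near 0. *Shh* had 1103, 1003 and 1036 normalized counts in the controls and 1102, 967 and 1225 in the mutants, and the groups overlapped. Its log2 fold change was 0.06 (95% interval −0.19 to 0.32, limma, adjusted p = 0.750). *Smo* had 5805, 5392 and 5310 normalized counts in the controls and 5740, 5540 and 5481 in the mutants. Its groups overlapped as well, with a log2 fold change of 0.02 (95% interval −0.18 to 0.22, limma, adjusted p = 0.887).

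*Ptch1* had 1521, 3148 and 1715 normalized counts in the controls and 3327, 3350 and 3668 in the mutants. The 3 mutants lay close together, while control replicate 2 stood just under them and at about the level of the mutants. The log2 fold change was 0.77 (standard error 0.24, limma, adjusted p = 0.233). *Hhip*, whose product binds the ligand, had 825, 1723 and 811 normalized counts in the controls and 1742, 1764 and 2016 in the mutants. Here too control replicate 2 was beside the mutants, and the log2 fold change was 0.81 (standard error 0.27, limma, adjusted p = 0.233).

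Among the Gli genes, the largest difference was in *Gli3*, with 1856, 2969 and 1646 normalized counts in the controls and 3560, 3507 and 3687 in the mutants. Its fitted log2 fold change was 0.78 (standard error 0.20, limma, adjusted p = 0.233), and control replicate 2 lay between the other controls and the mutants. *Gli2* had 1264, 1813 and 853 against 1747, 1841 and 1671, so that control replicate 2 lay inside the range of the mutants. The log2 fold change of *Gli2* was 0.49 (standard error 0.24, limma, adjusted p = 0.270). *Gli1*, the Gli gene that is itself a pathway target, had 2008, 2162 and 1688 against 2327, 1985 and 2177. Its groups overlapped, with a log2 fold change of 0.15 (95% interval −0.12 to 0.42, limma, adjusted p = 0.448).

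**Figure D2:**
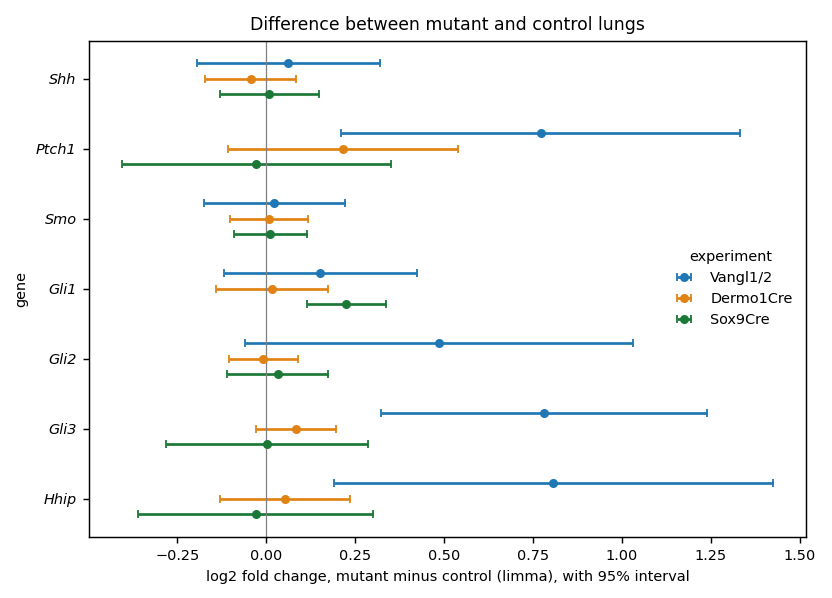
Log2 fold changes of mutant minus control lungs (x axis) for the 7 genes (y axis) in the 3 experiments, by colour, with points for the limma estimate and bars for its 95% interval (n = 3 against 3). In the *Vangl1/2* experiment *Ptch1*, *Hhip* and *Gli3* lie between 0.77 and 0.81 with wide intervals, and *Gli1* in *Sox9Cre* lungs lies at 0.23 with a narrow one.

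The result for *Ptch1*, *Hhip*, *Gli2* and *Gli3* turned on control replicate 2. Without it, these 4 of the 7 members rose in the mutants, with log2 fold changes of 1.09, 1.17, 0.75 and 1.04 (limma, adjusted p from 3.81e-05 to 0.00163). In that fit 43.2% of all genes tested passed, in either direction. *Gli1* then had 0.23 (limma, adjusted p = 0.0746), *Shh* 0.03 and *Smo* 0.01. Set against control replicate 2 as the only control, an alternative chosen after seeing the data, the log2 fold changes were 0.13 for *Ptch1*, 0.09 for *Hhip*, 0.27 for *Gli3* and −0.05 for *Gli2*, and 0 of the 7 members passed in limma. Where all 18 libraries shared 1 estimate of the spread, the same 4 members passed (limma, adjusted p from 0.0228 to 0.0448), against 21.5% of the 14614 genes tested. The log2 fold changes were unchanged in that fit, while the standard error of *Gli2* fell from 0.24 to 0.16. The spread was not equal between experiments. The coefficients of variation of these 4 genes ran from 33% to 46.7% in the *Vangl1/2* controls and from 1.78% to 18.4% in the other controls.

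The size of the difference followed the length of the transcript among the members. The 3 members under 5 kb, *Shh*, *Smo* and *Gli1*, had log2 fold changes from 0.02 to 0.15, *Gli2* with 6.64 kb had 0.49, and the 3 members over 8 kb had 0.77 to 0.81. Over the 849 tested genes with a transcript of 8 kb or more the median log2 fold change was 0.51, and 60.2% of them had an unadjusted p-value under 0.05. Over the 5813 genes under 3 kb the median was −0.20. With a trend on transcript length removed from each library, the log2 fold changes were 0.36 for *Gli3*, 0.34 for *Hhip*, 0.24 for *Ptch1*, 0.17 for *Gli2*, 0.14 for *Shh*, 0.10 for *Gli1* and 0.00 for *Smo*, and 0 of 7 passed in limma. With the trend removed and control replicate 2 left out, an alternative also chosen after seeing the data, *Gli3* rose with 0.45 (limma, adjusted p = 0.00212), *Hhip* with 0.51 (adjusted p = 0.00215) and *Ptch1* with 0.34 (adjusted p = 0.0196). *Gli2* did not pass at 0.31 (adjusted p = 0.150), and 15.5% of the 14164 genes with a length did. The part of transcript length in the differences of these members was not tested.

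**Figure D3:**
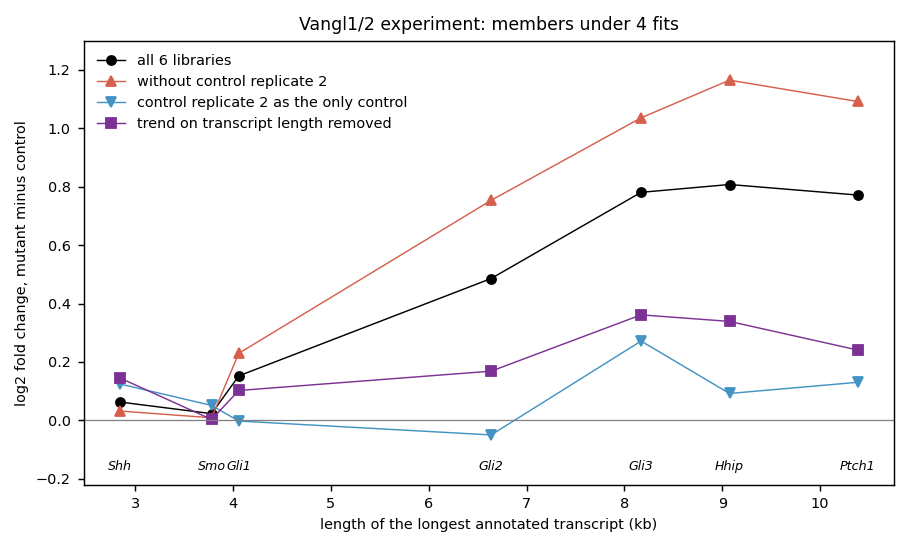
Log2 fold changes of the 7 genes in the *Vangl1/2* experiment (y axis) against the length of their longest annotated transcript in kb (x axis), under 4 fits shown by colour and symbol. With all 6 libraries (black) the values climb from *Smo* at 0.02 to *Hhip* at 0.81, and after removal of the trend on transcript length (purple) they run from 0.00 to 0.36.

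Markers of other cells also varied beside these genes in the *Vangl1/2* libraries. The 10 mesenchymal markers had sums of 60064, 99552 and 46273 normalized counts in the control libraries and of 74490, 94322 and 83755 in the mutant libraries, so that control replicate 2 was the highest and control replicates 1 and 3 were the lowest of the 6. The 13 epithelial markers summed to 21936 to 27113 in the controls and to 21772 to 25591 in the mutants. The 6 smooth muscle markers had 9128, 11616 and 13160 in the controls against 7119, 7649 and 10171, with overlapping groups and a median log2 fold change of −0.49. In bulk RNA, fewer cells of a type and less RNA in each cell cannot be told apart. None of the listed markers passed the adjusted threshold, and 5 of the 10 mesenchymal and 4 of the 6 smooth muscle markers had an unadjusted p-value under 0.05 in limma. The Y-linked *Ddx3y* had 984, 1560 and 1565 normalized counts in the controls and 3.02, 0 and 1790 in the mutants, and *Xist*, expressed from the inactive X, had 1832, 7.46 and 66.2 against 19069, 22698 and 10.8, so that 2 of the 3 mutants and none of the controls were near 0 in *Ddx3y*. The part of cell composition and of sex in the members' differences was not tested.

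In lungs with *Wnt5a* targeted in the mesenchyme, the Hedgehog genes lay close to those of their controls. Of the 7 members, 0 passed in limma, edgeR or DESeq2, against 0.0140% of the 14277 genes tested in limma. At an unadjusted p-value under 0.05 the count was also 0 of 7, against 10.2% of all genes. The groups were apart for 0 of 7 members in either direction, against 7.65% of all genes with higher and 7.92% with lower values in the mutants. The median log2 fold change of the members was 0.02, and that of all genes 0.00.

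*Shh* had 967, 908 and 925 normalized counts in the *Dermo1Cre* controls and 940, 933 and 847 in the mutants, a log2 fold change of −0.04 (95% interval −0.17 to 0.08, limma, adjusted p = 0.819). *Ptch1* had 3258, 2576 and 2288 in the controls and 3586, 2516 and 3328 in the mutants. With a log2 fold change of 0.21 (95% interval −0.11 to 0.54, limma, adjusted p = 0.637), *Ptch1* had the largest difference of the members, and 2 of its 3 mutant libraries lay above all controls. Genes of 8 kb or more had a median log2 fold change of 0.098 in this experiment. With the trend on transcript length removed, *Ptch1* had 0.13. *Hhip* had 1956, 1786 and 1841 against 2185, 1700 and 1933, a log2 fold change of 0.05 (95% interval −0.13 to 0.24). *Smo* had 4458, 4366 and 3984 against 4398, 4207 and 4263, and its interval ran from −0.10 to 0.12.

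Among the Gli genes of *Dermo1Cre* lungs, *Gli2* had the narrowest ranges. It had 1135, 1171 and 1137 normalized counts in the controls and 1147, 1123 and 1153 in the mutants. Its log2 fold change of −0.01 had an interval from −0.11 to 0.09 (limma, adjusted p = 0.960). *Gli1* had 1820, 1877 and 1558 against 1813, 1675 and 1812, with an interval from −0.14 to 0.17. *Gli3* had 2478, 2261 and 2293 against 2496, 2376 and 2579, a log2 fold change of 0.08 (95% interval −0.03 to 0.20). All 3 overlapped between the groups.

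Sums of markers of other cell types also differed between the *Dermo1Cre* libraries. The 6 smooth muscle markers had sums of 13386, 11699 and 16231 normalized counts in the control libraries and of 7907, 12673 and 8120 in the mutant libraries, so that the groups overlapped, and 5 of the 6 had an unadjusted p-value under 0.05. The 10 mesenchymal markers summed to 81872 to 93539 in the controls and to 74482 to 81329 in the mutants. The 5 neuron and neural crest markers summed to 390 to 685 in the controls and to 766 to 1632 in the mutants. The 13 epithelial markers, among whose cells *Shh* is made, summed to 21807 to 23047 in the controls and to 20731 to 21032 in the mutants. The last 3 sums did not overlap between the groups, and none of these markers passed the adjusted threshold in limma.

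In lungs with *Wnt5a* targeted in the epithelium, *Gli1* had the largest log2 fold change of the members, which did not pass the adjusted threshold. *Gli1* had 1581, 1645 and 1551 normalized counts in the *Sox9Cre* controls and 1860, 1892 and 1831 in the mutants. Every mutant library was above every control, and both groups were narrow, with SDs of 47.8 and 30.6. The difference was 1.17-fold, a log2 fold change of 0.23 with a standard error of 0.05 (95% interval 0.11 to 0.34), an unadjusted p-value of 0.00144 in limma and an adjusted p of 1. In DESeq2 the adjusted p was 0.290, and over the alternatives it ran from 0.179 to 1. For a single gene, 3 libraries against 3 allow a two-sided exact permutation p of 0.1 at the least.

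Of the 7 members, 0 passed in limma, edgeR or DESeq2 in *Sox9Cre* lungs, as did 0% of the 14293 genes tested in limma. *Gli1* was the 1 member of 7 with an unadjusted p-value under 0.05, against 3.90% of all genes. It was also the 1 member whose groups were apart with higher values in the mutants, against 4.42% of all genes, and 0 of 7 were apart with lower values, against 4.36%. The ratio of *Gli1* to *Shh* normalized counts was 1.82, 1.72 and 1.67 in the controls and 1.99, 1.99 and 2.08 in the mutants. It ran from 1.63 to 2.16 in the *Vangl1/2* controls and from 1.78 to 2.11 in the mutants. In *Dermo1Cre* lungs it ran from 1.68 to 2.07 and from 1.8 to 2.14, so that the groups overlapped in both of these experiments.

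*Shh* itself had 869, 955 and 927 normalized counts in the *Sox9Cre* controls and 933, 952 and 882 in the mutants. The groups overlapped, with a log2 fold change of 0.01 (95% interval −0.13 to 0.15). *Smo* had 4193, 4237 and 4251 against 4408, 4222 and 4152, a log2 fold change of 0.01 (95% interval −0.09 to 0.11). *Gli2* had 1138, 1186 and 1168 against 1115, 1273 and 1186, with a log2 fold change of 0.03 (95% interval −0.11 to 0.17). For these 3 genes the intervals lay within 0.2 of 0 on the log2 scale.

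*Ptch1*, *Hhip* and *Gli3* had similar means in both *Sox9Cre* groups and a wider spread in the mutants than in the controls. *Ptch1* had 2477, 2556 and 2762 normalized counts in the controls and 1950, 2514 and 3362 in the mutants. *Hhip* had 1784, 1814 and 1930 against 1401, 1875 and 2237, and *Gli3* had 2244, 2377 and 2374 against 1870, 2457 and 2765. In all 3 genes mutant replicate 1 was the lowest and mutant replicate 3 the highest of the 6 libraries. Their coefficients of variation were 27.3%, 22.8% and 19.2% in the mutants and 5.67%, 4.19% and 3.26% in the controls, where the median over all genes tested was 8.49% and 5.85%. Mutant replicate 1 had a Spearman correlation of −0.35 between transcript length and its deviation from the controls across genes, and mutant replicate 3 had 0.31. Genes of 8 kb or more had median deviations of −0.16 and 0.18 in these 2 libraries, against −0.41 and 0.37 for *Ptch1*, −0.39 and 0.28 for *Hhip* and −0.32 and 0.25 for *Gli3*. Their log2 fold changes were −0.03, −0.03 and 0.00 with all 6 libraries. Without mutant replicate 1 they were 0.16, 0.15 and 0.16 and without mutant replicate 3 they were −0.23, −0.18 and −0.12, and none of the 3 passed in either fit.

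**Figure D4:**
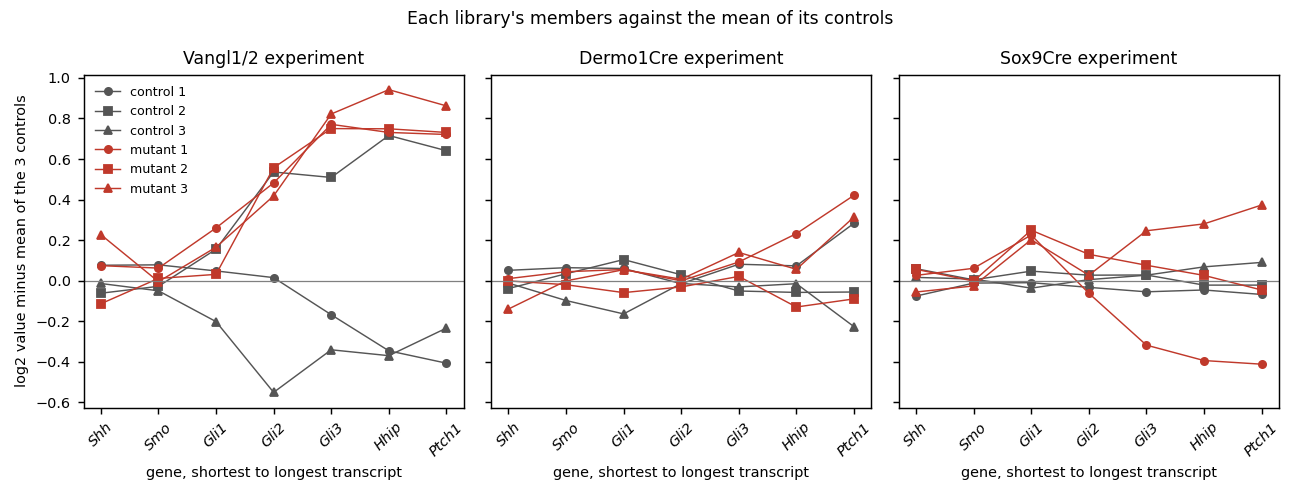
Log2 value of each library minus the mean of the 3 controls of its experiment (y axis) for the 7 genes, ordered from the shortest to the longest transcript (x axis), with grey lines for controls, red lines for mutants and symbols for replicates. In *Sox9Cre* lungs the 3 mutants meet at 0.20 to 0.25 in *Gli1* and part again towards *Ptch1*, from −0.41 to 0.37.

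In the *Sox9Cre* experiment the 7 cardiomyocyte markers had sums of 4910, 7983 and 17517 normalized counts in the control libraries and of 5334, 2612 and 835 in the mutant libraries. The 5 mesothelial markers summed to 4501 to 5123 in the controls and to 3728 to 4454 in the mutants, while the 10 mesenchymal markers summed to 84978 to 101098 and 78734 to 86847. The sums of the epithelial markers overlapped, at 20730 to 22199 and 20974 to 22574. The part of these cells in the value of *Gli1* was not tested. *Xist* and the Y-linked *Ddx3y* were both present in all 3 *Sox9Cre* controls, with 4861 to 12683 and 328 to 1077 normalized counts, while each mutant library was high in 1 of them and low in the other. Mutant replicates 1 and 3 had 12978 and 25119 normalized counts of *Xist* with 0 and 1.02 of *Ddx3y*, and mutant replicate 2 had 17.1 and 1480.

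The differences between experiments were then tested directly. No member's log2 fold change differed between the *Vangl1/2* and *Dermo1Cre* experiments past the adjusted threshold in limma or edgeR, against 0.0143% of the 13980 genes tested in limma. The largest of these differences was 0.75 for *Hhip* (95% interval 0.11 to 1.40, limma, adjusted p = 0.254), followed by 0.70 for *Gli3* (adjusted p = 0.252). Between *Vangl1/2* and *Sox9Cre*, 0 of 7 members and 0.0143% of genes passed, with 0.84 for *Hhip* (adjusted p = 0.157), 0.80 for *Ptch1* (adjusted p = 0.161) and 0.78 for *Gli3* (adjusted p = 0.157). Between *Dermo1Cre* and *Sox9Cre*, 0 of 7 members and 0% of genes passed. The difference for *Gli1* was −0.21 there (95% interval −0.47 to 0.05, limma, adjusted p = 1), so that a higher *Gli1* in *Sox9Cre* lungs was not shown to be particular to them. The spread behind this interval was taken over all 18 libraries, those of the *Vangl1/2* experiment included. The coefficient of variation of *Gli1* was 12.4% in the *Vangl1/2*, 9.72% in the *Dermo1Cre* and 3% in the *Sox9Cre* controls. The *Wnt5a* experiments were not compared in a fit of their own. At an unadjusted p-value under 0.05, *Hhip*, *Gli3* and *Gli2* differed between *Vangl1/2* and *Dermo1Cre*, *Ptch1*, *Gli3* and *Hhip* between *Vangl1/2* and *Sox9Cre*, and no member between the *Wnt5a* experiments, against 17.3%, 25.1% and 2.63% of all genes. Genotype and table of origin cannot be told apart in any of these comparisons. In those with the *Sox9Cre* experiment, time of collection cannot be told apart from them either.

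Within groups, the members fell into sets that varied together from library to library. Over the 18 libraries, each centred on the mean of its group, Pearson's r of the log2 values was 0.96 between *Gli3* and *Hhip*, 0.93 between *Ptch1* and *Hhip* and 0.89 between *Ptch1* and *Gli3*. *Gli2* had 0.81 with *Gli3*. *Gli1* varied most like *Gli2* (0.64) and *Smo* (0.60), and *Shh* had no value above 0.26 with any member. Over the 12 libraries of the *Wnt5a* experiments alone, *Gli3* and *Hhip* had 0.91, *Ptch1* and *Hhip* 0.91, and *Gli1* and *Smo* 0.80. The values of *Gli2* were lower there, with 0.31 for *Gli1* and *Gli2* and 0.60 for *Gli2* and *Gli3*. These values describe libraries that share the lean towards long or short transcripts, and 6 group means were removed before they were computed.

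The likeness was not particular to the pathway. Of the 13979 other genes, those most like *Ptch1* over the 18 libraries included *Phldb2* (r = 0.99), *Med14* (0.98), *Zfp366* (0.96) and *Lyst* (0.96). Their longest transcripts ran from 5483 to 13181 bases, where the median over the genes tested was 3420 in the *Vangl1/2* table. *Hhip* came at rank 72 and *Gli3* at rank 312 in that order, with *Gli2* at 2560, *Gli1* at 3303, *Smo* at 7543 and *Shh* at 8171. Over the 12 *Wnt5a* libraries *Phldb2* and *Med14* led again, followed by *Ankhd1*, *Nin* and *Eml4*, and *Hhip* came at rank 319. The genes most like *Gli1* were *Pip5k1c* (0.88), *Hoxa6* (0.86), *Ranbp10* (0.85), *Brd2* (0.84) and *Slc35e1* (0.83), with *Gli2* at rank 340, *Smo* at 589, *Gli3* at 1223, *Ptch1* at 1668, *Hhip* at 1774 and *Shh* at 4536. Over the 12 libraries *Gli1* was most like *Ppp1cc*, *Ranbp10*, *Med18*, *Dcbld1* and *Bap1* (0.93 to 0.95), and *Smo* came at rank 152. For *Shh* they were *Zfp40* (0.84), *Ttc39a* (0.83), *Egr1* (0.83), *Fam174b* (0.81) and *Bcl6b* (0.80), and the first member was *Smo* at rank 2046. Over the 12 libraries *Fam50a*, *BC030870*, *Scg5*, *Kif26a* and *Atf6b* (0.89 to 0.90) took these places, none of them in the earlier list.

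The other genes of the pathway were followed in a list of 38, of which 37 were tested in each experiment. *Ihh*, a sister ligand of *Shh*, had no more than 5 normalized counts in any library and was not tested. None of the 37 passed the adjusted threshold in any experiment in limma, edgeR or DESeq2. At an unadjusted p-value under 0.05 in limma, 8 were higher and 1 was lower in the *Vangl1/2* mutants, 1 was higher and 3 were lower in the *Dermo1Cre* mutants, and 1 was higher and 3 were lower in the *Sox9Cre* mutants. These were 9, 4 and 4 of 37 genes, against 20.5%, 10.2% and 3.90% of all genes tested in either direction. Over all genes 12% were higher and 8.56% lower in the *Vangl1/2* mutants, 5.42% and 4.76% in the *Dermo1Cre* mutants, and 1.08% and 2.81% in the *Sox9Cre* mutants. Their median log2 fold changes were 0.15, 0.01 and 0.01, beside −0.01, 0.00 and 0.00 over all genes tested.

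**Figure D5:**
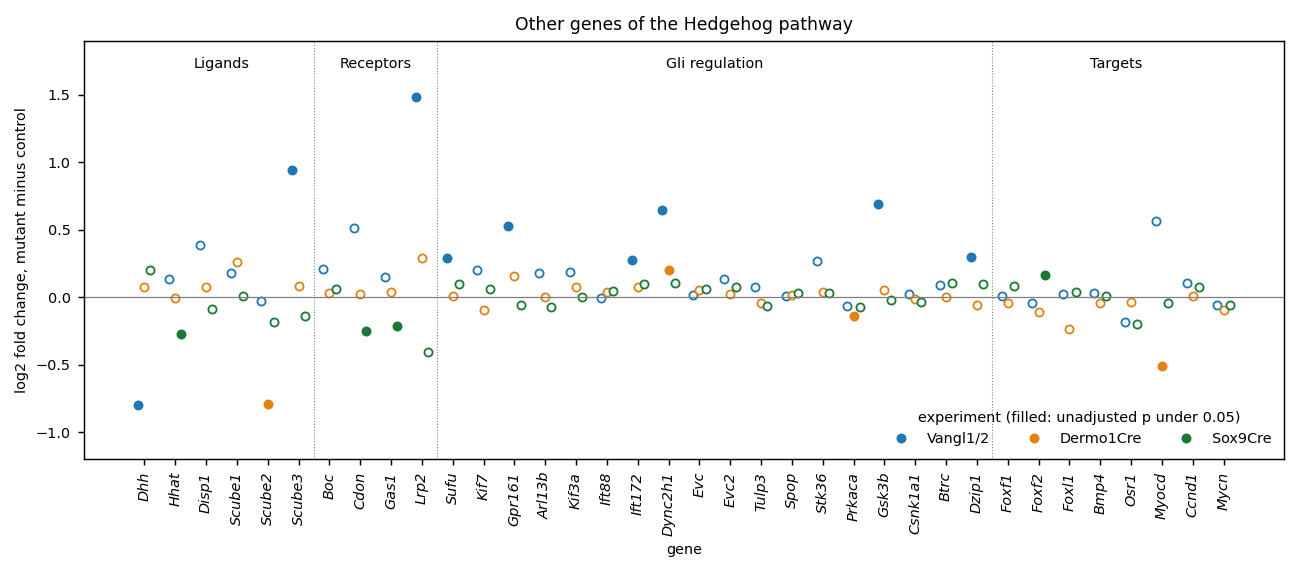
Log2 fold changes of mutant minus control lungs (y axis) for 36 of the 37 tested genes of the pathway list (x axis), by role and with experiments in colour. Filled points had an unadjusted p-value under 0.05 in limma and none passed the adjusted threshold. The *Vangl1/2* values reach from −0.80 in *Dhh* to 1.48 in *Lrp2*, and most values of the other experiments stay near 0.

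Of the genes that make and release the ligand, *Scube3*, whose product aids the release of Hedgehog proteins, had 171, 276 and 108 normalized counts in the *Vangl1/2* controls and 308, 376 and 317 in the mutants. Its groups were apart, with a log2 fold change of 0.94 (limma, adjusted p = 0.233). *Dhh*, the third Hedgehog ligand, was apart in the other direction at low values, with 26.9, 32.6 and 22.1 against 14.1, 12.8 and 18.7 (log2 fold change −0.80, adjusted p = 0.233). *Scube2* had 25.1, 30.1 and 32.7 normalized counts in the *Dermo1Cre* controls and 20.2, 16.9 and 13.0 in the mutants. This was a log2 fold change of −0.79 (limma, adjusted p = 0.406), on few reads, and it was −0.02 in the *Vangl1/2* and −0.18 in the *Sox9Cre* experiment. *Hhat*, which attaches the lipid that the ligand needs, had −0.27 in *Sox9Cre* lungs with groups that overlapped. *Disp1*, which lets the lipid-bearing ligand leave the cell, had 0.39, 0.07 and −0.08 in the 3 experiments. *Scube1* had 0.26 in *Dermo1Cre* lungs and *Scube3* −0.14 in *Sox9Cre* lungs, where they ranked among the smallest p-values of their role.

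None of the 5 receptors and coreceptors passed the adjusted threshold in any experiment in limma. *Lrp2*, a large endocytic receptor with the longest transcript of the list at 15.46 kb, had 75.4, 225 and 54.6 normalized counts in the *Vangl1/2* controls and 230, 370 and 244 in the mutants. Its groups were apart by 5 normalized counts, with a log2 fold change of 1.48 (limma, adjusted p = 0.233). *Cdon*, which binds the ligand together with Ptch1, had 521, 1279 and 498 against 831, 1145 and 1017, with control replicate 2 the highest of the 6. *Cdon* and *Gas1*, coreceptors that raise the response to the ligand, were apart with lower values in the *Sox9Cre* mutants. *Cdon* had 1424, 1080 and 1155 normalized counts in the controls and 1041, 969 and 1054 in the mutants (log2 fold change −0.25, limma, adjusted p = 1). *Gas1* had 1720, 1534 and 1505 against 1498, 1428 and 1185 (log2 fold change −0.22, limma, adjusted p = 1). *Boc*, the third coreceptor, lay higher in all 3 *Sox9Cre* mutants, by 0.06 on the log2 scale.

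Of the regulators of Gli and the genes of the primary cilium, where the pathway acts, 16 of 18 had a log2 fold change above 0 in the *Vangl1/2* experiment, 12 in *Dermo1Cre* and 11 in *Sox9Cre* lungs, against 48.8%, 50.3% and 50.7% of all genes tested. All of the 18 but *Prkaca* had transcripts over 3 kb. In the *Vangl1/2* experiment the median log2 fold change over all genes was −0.20 under 3 kb, 0.11 at 3 to 8 kb and 0.51 at 8 kb or more. The part of transcript length in these counts was not tested. *Gsk3b*, a kinase that marks Gli proteins for processing, had 2209, 3478 and 2093 normalized counts in the *Vangl1/2* controls and 3877, 4073 and 4309 in the mutants (log2 fold change 0.69, limma, adjusted p = 0.233). Its transcript has 8.30 kb, and control replicate 2 again stood between the other controls and the mutants. *Ift172*, needed for transport in the cilium, was apart with higher values in the mutants of all 3 experiments, by 0.27, 0.07 and 0.10 on the log2 scale, with adjusted p-values of 0.233, 0.658 and 1 in limma. Of all genes tested, 13.6%, 7.65% and 4.42% were apart in that direction in each experiment alone. The share apart in all 3 was not computed. *Dync2h1*, the heavy chain of a motor of the cilium with a transcript of 14.26 kb, had 0.65, 0.20 and 0.10. *Sufu*, which holds Gli proteins back, had 0.29 in the *Vangl1/2* experiment with groups apart (adjusted p = 0.235), 0.01 in *Dermo1Cre* and 0.10 in *Sox9Cre* lungs. *Prkaca*, the catalytic subunit of the kinase that starts the processing of Gli3, was apart with lower values in *Dermo1Cre* mutants by −0.14 (adjusted p = 0.443). *Kif7*, *Gpr161* and *Arl13b*, which act in the cilium, had log2 fold changes of 0.20, 0.53 and 0.18 in the *Vangl1/2* experiment and between −0.09 and 0.16 in the others. *Dzip1* had 0.10 in *Sox9Cre* lungs with overlapping groups.

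None of the 8 targets and response genes of the mesenchyme passed the adjusted threshold in any experiment in limma. *Foxf1*, a mesenchymal target of Shh, had log2 fold changes of 0.01, −0.05 and 0.08 in the *Vangl1/2*, *Dermo1Cre* and *Sox9Cre* experiments, and *Bmp4* had 0.03, −0.04 and 0.01. *Osr1* had −0.18, −0.03 and −0.20, and all its groups overlapped. *Myocd*, the coactivator that drives smooth muscle genes, had 329, 255 and 306 normalized counts in the *Dermo1Cre* controls and 209, 204 and 209 in the mutants. With a log2 fold change of −0.51 and an unadjusted p-value of 0.000754 it had the smallest p-value of the whole list in limma (adjusted p = 0.189). *Myocd* had 0.56 in the *Vangl1/2* experiment (adjusted p = 0.262) and −0.04 in *Sox9Cre* lungs. The smooth muscle markers given above had median log2 fold changes of −0.59 in *Dermo1Cre* lungs, where their sums overlapped, and of −0.49 in the *Vangl1/2* experiment. *Foxl1* had −0.24 in *Dermo1Cre* lungs with overlapping groups. *Ccnd1*, which encodes a cyclin of the cell cycle, was apart with higher values in the *Vangl1/2* mutants, by 0.10 on the log2 scale (adjusted p = 0.522). *Foxf2* was apart with higher values in the *Sox9Cre* mutants, at 1023, 1048 and 1043 normalized counts in the controls and 1273, 1111 and 1111 in the mutants (log2 fold change 0.16, adjusted p = 1).

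Without control replicate 2, 17 of the 37 other genes rose in the *Vangl1/2* mutants and 0 fell, where 3073 of the 14303 genes tested rose and 3110 fell. With the trend on transcript length also removed, 8 of the 37 rose and 0 fell, against 844 and 1350 of 14164 genes. For the 37 genes the median log2 fold change was 0.18 in that fit and 0.01 over all genes with a length.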

How the data were processed

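Whole embryonic lungs were sequenced in bulk, and the submitters' processing notes name Trim Galore, HISAT2, featureCounts and DESeq2 with build mm10; versions were not given in the sources used here. For each experiment the authors deposited a signal per gene and library, which is a gene count divided by a size factor. The authors also deposited columns with the mean of this signal, log2 fold changes and unadjusted p-values of their own comparison, which were not used. All values per library were mapped to a group.

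Values were log2-transformed with a pseudocount of 1. Genes that reached 10 normalized counts in 3 or more of the 6 libraries were compared with limma (version 3.58.1, R 4.3.3) with a mean-variance trend and no covariates. The Benjamini-Hochberg adjustment ran over all genes, with a threshold of 0.05. Differences between experiments were contrasts in a fit over 18 libraries. Every value was a whole number of reads after division by a step per library (largest deviation 3.7e-05 reads), and edgeR (4.0.16) and DESeq2 (1.42.0) were run on these reads as alternatives. The authors' size factors were computed within each table, so levels are compared within a table. The procedure was also run on simulated data, which held no lean towards long transcripts and no outlying control. That run therefore does not bear on either of these features.

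Transcript length is that of the longest transcript in GENCODE release 21 for the mouse (98.2% of names matched), and promoters are from RefSeq. The members, the pathway list and the marker lists were chosen with earlier results of these data known. The genes named are the 7 members, 14 pathway genes fixed by name, the 2 genes of each role with the smallest p in each experiment, and the 5 genes most like *Shh*, *Ptch1* and *Gli1*. Of these, 1 pathway gene and 1 gene most like *Ptch1* are not reported here, though both stay in the counts. Alternatives changed the test, scaling, filter, pseudocount, libraries and a block, and removed a trend on transcript length.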

Additional observations from a re-analysis of the deposited data

Results flagged for a closer look

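*Foxf2*, a forkhead gene of the lung mesenchyme, had lower values in every *Dermo1Cre* mutant library than in its controls (1265, 1143 and 1149 normalized counts against 1033, 1128 and 1139) and higher values in every *Sox9Cre* mutant library than in its controls. The log2 fold changes were −0.11 and 0.16. The difference between them was −0.27 (standard error 0.11) with an unadjusted p-value of 0.0245 in limma over the 18 libraries, and it did not pass after Benjamini-Hochberg adjustment over all genes (adjusted p = 1). *Foxf2* was picked because its groups lay apart in opposite directions in these same values, so its p-value is not independent of that choice. In this comparison 2.63% of the 13980 genes tested had an unadjusted p-value under 0.05 in limma. The comparison also spans 2 times of collection, E12.5 and E13.5.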

How the results depend on the processing

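No member and no other pathway gene passed the adjusted threshold in *Dermo1Cre* or *Sox9Cre* lungs under any alternative run. In the *Vangl1/2* experiment, leaving out 1 library at a time gave 0 to 4 members and 0 to 17 other pathway genes, and only leaving out control replicate 2 gave more than 0. With all 18 libraries in 1 fit, 4 members and 8 other genes were called. Without both the length trend and control replicate 2, the counts were 3 and 8. The other tests, scalings, filters and pseudocounts called 0 of both. The deviations of same-numbered libraries correlated from −0.22 to 0.30, and those of differently numbered libraries from −0.28 to 0.34. So few values cannot decide whether replicate numbers paired the libraries. With the replicate block, 0 members were called in every experiment, and the block changed no call (*Gli3* in *Vangl1/2*, log2 fold change 0.78, limma, adjusted p = 0.214). Leaving out 1 library turned the sign of log2 fold changes near 0. In the *Vangl1/2* experiment *Shh* ran from −0.020 to 0.15 and *Smo* from −0.0023 to 0.062. In *Dermo1Cre* lungs *Shh* ran from −0.070 to 0.0047, *Smo* from −0.041 to 0.040, *Gli1* from −0.066 to 0.069, *Gli2* from −0.016 to 0.0065 and *Hhip* from −0.037 to 0.14. In *Sox9Cre* lungs *Shh* ran from −0.029 to 0.041, *Ptch1* from −0.23 to 0.16, *Smo* from −0.014 to 0.029, *Gli2* from −0.017 to 0.079, *Gli3* from −0.12 to 0.16 and *Hhip* from −0.18 to 0.15. In the *Vangl1/2* experiment *Gli1* had −0.0025 and *Gli2* −0.050 against control replicate 2 alone, and *Smo* had −0.012 without that library and the length trend. Removing the length trend gave *Hhip* −0.022 in *Dermo1Cre* and *Gli3* −0.0022 in *Sox9Cre* lungs. *Ptch1* had 0.0028 in edgeR and 0.0042 in DESeq2 in *Sox9Cre* lungs. In edgeR the *Vangl1/2* value of *Smo* minus its *Dermo1Cre* and *Sox9Cre* values was −0.0066 and −0.0084. The causes were not tested. With 3 libraries a group, differences within the intervals given could not be resolved.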

Other observations

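*Ptch1* and *Hhip*, both targets of the pathway whose products bind the ligand, also had the 2 longest transcripts of the set (10.38 and 9.07 kb). Their ratio of normalized counts stayed narrow in 2 of the 3 experiments. It ran from 1.82 to 2.11 in the 6 *Vangl1/2* libraries, where *Ptch1* itself ran from 1521 to 3668. In *Sox9Cre* lungs it ran from 1.34 to 1.5, with *Ptch1* between 1950 and 3362. In *Dermo1Cre* lungs it ran from 1.24 to 1.72, which was wider than the relative range of *Hhip* alone. The ratio of *Ptch1* to *Gli1* ran from 0.758 to 1.69 in the *Vangl1/2* libraries, from 1.37 to 1.98 in *Dermo1Cre* and from 1.05 to 1.84 in *Sox9Cre* lungs. The ratio of *Gli3* to *Gli2*, whose products act mainly as repressor and activator, was 1.47 to 1.93 in the *Vangl1/2* controls and 1.91 to 2.21 in the mutants. In *Dermo1Cre* lungs it was 1.93 to 2.18 and 2.11 to 2.24, and in *Sox9Cre* lungs 1.97 to 2.03 and 1.68 to 2.33. Controls and mutants overlapped in this ratio in each experiment. No test was run on these ratios. The genes in them differ in transcript length, and the part of length in the ratios was not tested.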
